A study of Mus musculus with 92 samples.

Results

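RNA levels of 9 enzymes of serine synthesis and folate one-carbon metabolism were followed in the livers of female HET3 mice, which are bred from several inbred strains so that each animal is genetically distinct. The enzymes were chosen by name rather than by a cut on their values, though with earlier results of these data known. Phgdh, Psat1 and Psph make serine, Shmt1 and Shmt2 split it, and Mthfd1, Mthfd2, Mthfd1l and Aldh1l1 convert the folate-bound carbon. They are 9 of the 17275 genes with usable lines in the deposited count table, and all 9 passed the filter on low counts that left 12617 genes to test. RNA sequencing covered 92 liver libraries of both sexes in 12 groups, of which 46 female libraries in 6 groups were used. At 24 months of age these were 8 livers on Low Isoleucine (a diet short of that amino acid alone), 7 on Low Amino Acid (short of all amino acids) and 8 on Control. At 6 months there were 7, 8 and 8 livers on the same diets. By the labels the diets began at 6 months of age in the mice killed at 24 months, and at 9 weeks in those killed at 6 months, whereas the series description gives 13 weeks on diet for both. Age, starting age and time on diet therefore cannot be told apart. All mice were fasted for 16 hours before the liver was taken, Control mice included, so every level below is that of a fasted liver.

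Serine is made from a glycolytic intermediate by 3 enzymes acting in a row, and its side chain is the main source of the carbon units that folate carries for nucleotide and methionine synthesis. The same folate reactions run in the cytosol and in mitochondria, with separate enzymes for each compartment. Adult liver is rich in the cytosolic folate enzymes and makes little of the serine-synthesis enzymes and in rats more of them when dietary protein is low. Phgdh, Psat1 and Mthfd2 are known targets of ATF4, the transcription factor of the amino acid response.

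Phgdh, Psat1 and Mthfd2, whose RNAs varied together among livers of a group, are shown here by the sequence around their transcription starts. Each window runs 5′ to 3′ on the gene's strand from 250 bases before the RefSeq start to 50 bases after it (build GRCm38.p6). They lie at chr3:98339920-98340219, chr19:15925010-15925309 and chr6:83317555-83317854, all on the minus strand. Psat1 has a further RefSeq start, not printed. Capitals mark the CCAAT box, read on either strand.
Phgdh: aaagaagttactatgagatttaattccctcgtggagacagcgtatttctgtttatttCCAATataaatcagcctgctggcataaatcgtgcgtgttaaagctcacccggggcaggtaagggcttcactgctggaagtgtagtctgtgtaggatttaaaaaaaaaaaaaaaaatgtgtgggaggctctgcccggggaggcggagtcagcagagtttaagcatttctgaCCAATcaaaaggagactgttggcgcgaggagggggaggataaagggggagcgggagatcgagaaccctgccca
Psat1: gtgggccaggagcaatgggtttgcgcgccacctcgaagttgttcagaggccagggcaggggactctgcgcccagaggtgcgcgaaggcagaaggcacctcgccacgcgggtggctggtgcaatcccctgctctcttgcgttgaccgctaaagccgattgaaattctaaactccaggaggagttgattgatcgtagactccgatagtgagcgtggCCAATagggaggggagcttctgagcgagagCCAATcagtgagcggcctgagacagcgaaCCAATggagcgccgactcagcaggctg
Mthfd2: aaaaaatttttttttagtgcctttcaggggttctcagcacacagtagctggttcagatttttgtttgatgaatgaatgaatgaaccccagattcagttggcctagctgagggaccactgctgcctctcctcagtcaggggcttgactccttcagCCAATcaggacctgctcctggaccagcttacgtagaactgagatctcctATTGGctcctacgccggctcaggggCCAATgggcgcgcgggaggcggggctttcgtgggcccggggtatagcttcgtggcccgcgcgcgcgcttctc
The CCAAT letters occur 2 times in the Phgdh window and 3 times in each of the Psat1 and Mthfd2 windows shown. Over the 10 windows of the 9 enzymes (Psat1 has 2), 7 held CCAAT, against 37.4% of all 32851 RefSeq windows. The GC box GGGCGG was in 6 of the 10 windows (35.7% of all windows), and in none of the 3 printed. No window of the 9 enzymes held the amino acid response element TGATGNAA (3.97% of all windows), the E-box CACGTG (7.15%) or the cyclic AMP element TGACGTCA (1.79%), read on both strands. None of these letter strings contains another. These matches describe letters in a window and do not show binding.

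Estimated counts summed to between 7.82 and 27.6 per library over the usable genes, in units of 1e+06, with a median of 22.6. The lowest total belonged to replicate 5 of Low Isoleucine at 24 months, and the next was 14.3. Albumin, the main plasma protein of hepatocytes, took between 45100 and 120000 CPM in every library used. For albumin and Kdm5d, CPM are counts per 1e+06 of the library total. For the enzymes, CPM are TMM-scaled counts per 1e+06. A further library labelled 6-month Low Isoleucine was left out: it held 50.8 CPM of the Y-linked gene Kdm5d, against at most 0.639 CPM in the other 46, and its 9 enzyme levels enter no group value below. In bulk liver, fewer cells of a type and less RNA per cell cannot be told apart. Psph, Shmt1 and Shmt2 share exon bases with Cct6a, Smcr8 and Ndufa4l2 on the opposite strand, and Phgdh has a processed pseudogene on chromosome 7. The sources used here do not say whether counting used the strand, so reads of those partners may be mixed.

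The enzymes fell into an abundant and a scarce set. Per kilobase of exon, Aldh1l1, the cytosolic formyl-folate dehydrogenase (chromosome 6, 90486427 to 90600203), stood highest in 6-month controls at 200 ± 21.2 CPM per kb (SD, n = 8). Shmt1, the cytosolic serine hydroxymethyltransferase (chromosome 11, 60788104 to 60811718), followed at 87.8 ± 11.2 and Mthfd1, the cytosolic enzyme that joins 3 folate reactions (chromosome 12, 76255298 to 76319803), at 66.0 ± 5.47 CPM per kb. The mitochondrial Shmt2 (chromosome 10, 127517123 to 127522444) averaged 41.7 ± 7.42 CPM per kb. These 4 were in the same order in each of the 8 livers, although the ranges of Shmt1 and Mthfd1 over livers overlapped. Positions are those of GENCODE M21 on GRCm38.

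The other 5 were far scarcer: every 6-month control liver had more Shmt2 than the highest of them had Mthfd1l, per kilobase. Mthfd1l, the mitochondrial enzyme that releases formate (chromosome 10, 3973118 to 4167081), averaged 1.34 ± 0.393 CPM per kb in 6-month controls and Psph, the phosphatase of the last serine step (chromosome 5, 129765558 to 129787449), 0.795 ± 0.182. Psat1, the aminotransferase of the middle step (chromosome 19, 15904678 to 15947337), averaged 0.398 ± 0.834 CPM per kb, a mean set by 1 liver. Mthfd2, the mitochondrial dehydrogenase and cyclohydrolase (chromosome 6, 83305691 to 83325908), stood at 0.127 ± 0.0663 and Phgdh, the first enzyme of serine synthesis (chromosome 3, 98313170 to 98339990), at 0.115 ± 0.0810 CPM per kb. Neighbours within this scarce set overlapped in range, and Mthfd2 exceeded Phgdh in only 5 of 8 livers. Phgdh in 6-month livers rested on between 1 and 14.8 estimated counts per library, so its young levels are imprecise.

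**Figure D1:**
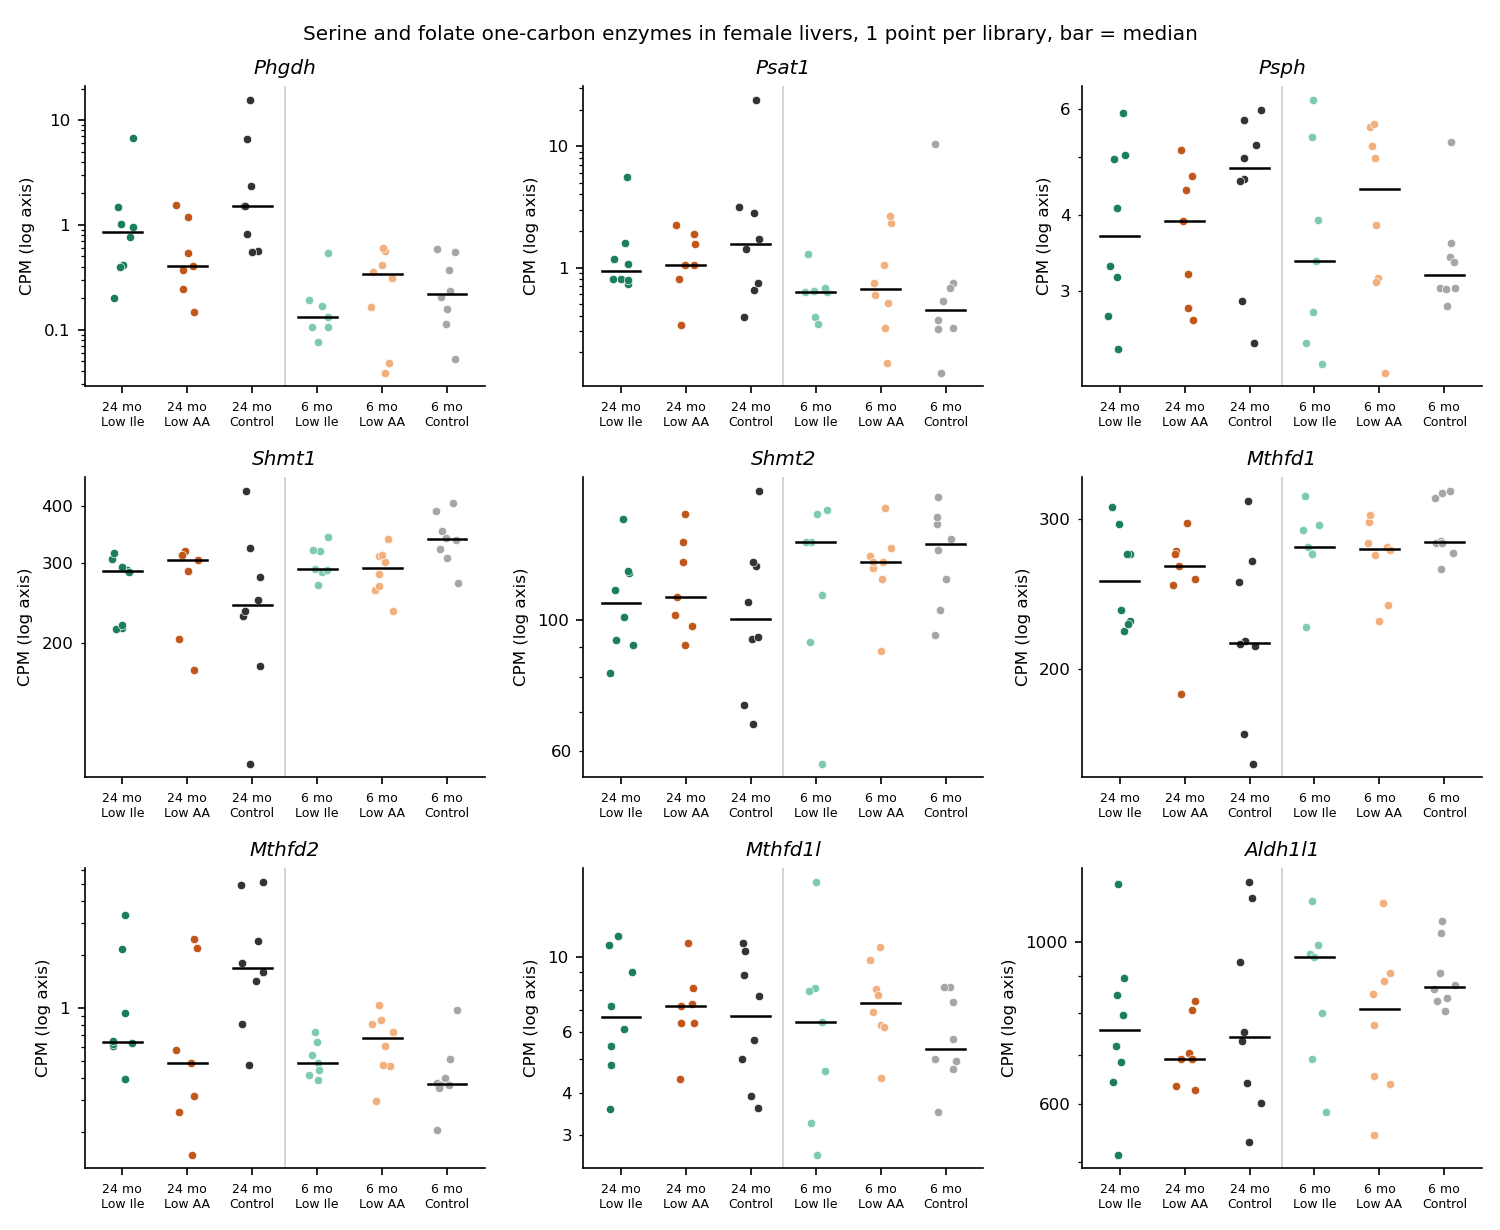
Level of each enzyme in CPM (log axis, a separate scale per panel) in every female liver; points are libraries, bars are group medians, and 24-month groups are left of 6-month groups. Phgdh and Mthfd2 sit highest in 24-month controls, where their medians were 1.5 and 1.69 CPM, while the points of Aldh1l1 overlap throughout.

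In livers of Control-fed mice, 24 months against 6 months, the first serine enzyme and a mitochondrial folate enzyme were higher and 2 cytosolic enzymes were lower. Of the 9 enzymes, 4 passed an adjusted p of 0.05, where 28.0% of all genes tested did: Phgdh and Mthfd2 were higher (16.7% of all genes) and Shmt1 and Mthfd1 lower (11.4%). The 9 had a median log2 fold change of 0.235, and all genes one of 0.0325. The count therefore stands close to the background of a comparison in which many genes differed.

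Phgdh ran from 0.546 through a median of 1.5 to 15.7 CPM in the 8 livers of 24-month controls, against 0.0523, 0.220 and 0.595 CPM (lowest, median, highest) in the 8 livers of 6-month controls. Every 24-month control liver stood above the 6-month median and 6 of 8 above the highest 6-month liver. The fitted log2 fold change was 3.64 (SE 0.700, adjusted p = 0.000341 by edgeR's quasi-likelihood test). Without replicate 3 of the 24-month controls, the liver with 15.7 CPM, it was 2.735 and still called. The medians differed 6.83-fold and the means 13.0-fold.

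Psat1 ranged from 0.391 CPM through a median of 1.57 to 24.2 in 24-month controls, against 0.136, 0.446 and 10.5 CPM in 6-month controls. Each group held 1 liver far above the rest: replicate 3 at 24 months, the liver that was also highest in Phgdh, and replicate 2 at 6 months. The log2 fold change of 1.35 (SE 0.714) did not pass (adjusted p = 0.156). Leaving out the 24-month liver turned it to -0.157, and leaving out the 6-month liver raised it to 3.31, past the threshold (adjusted p = 0.000885). The fitted value of Psat1 with age therefore rested on 1 liver in each group. By medians it was 3.52-fold higher at 24 months, and 7 of 8 older livers stood above the 6-month median.

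Psph averaged 4.55 ± 1.26 CPM in the older control livers, against 3.44 ± 0.786 CPM in the younger (SD, n = 8 each). Its log2 fold change of 0.4 (SE 0.218, adjusted p = 0.170) did not pass the test. Of the 3 serine-synthesis genes, only Phgdh was called.

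Shmt1 ran from 109 through a median of 243 to 432 CPM in 24-month controls, against 271, 339 and 406 CPM in 6-month controls. The 24-month group was the more variable: 5 of its 8 livers lay below every 6-month control, and 1 lay above all of them. Its log2 fold change was -0.42 (SE 0.153, adjusted p = 0.0355). That call was the least stable of the 4, as the adjusted p was 0.148 when only the groups compared were fitted. It ended when any of 6 single libraries was left out, with a largest adjusted p of 0.0901. Shmt2 stood at 106 ± 32.1 CPM in the older controls, against 130 ± 23.1 CPM in the younger, a log2 fold change of -0.295 (adjusted p = 0.175) that was not called.

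Mthfd1 ran from 155 through 215 to 315 CPM in 24-month controls, against 262, 282 and 324 CPM in 6-month controls. In 6 of the 8 older livers it lay below every younger one, although the groups overlapped. The log2 fold change was -0.381 (SE 0.104, adjusted p = 0.00603), and it stayed called whichever single library was left out.

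Mthfd2 went the other way, at 0.478, 1.69 and 5.17 CPM (lowest, median, highest) in 24-month controls, against 0.204, 0.371 and 0.978 CPM in 6-month controls. As with Phgdh, 6 of 8 older livers exceeded all younger ones. The log2 fold change was 2.35 (SE 0.489, adjusted p = 0.000681), and between 2.07 and 2.63 without any single library. Mthfd1l (log2 fold change 0.235, adjusted p = 0.565) and Aldh1l1 (-0.138, adjusted p = 0.546) did not pass. Mthfd1l averaged 7.01 ± 2.87 CPM at 24 months, against 5.95 ± 1.74 CPM at 6 months. Aldh1l1 averaged 820 ± 253 CPM at 24 months, against 902 ± 95.8 CPM at 6 months.

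**Figure D2:**
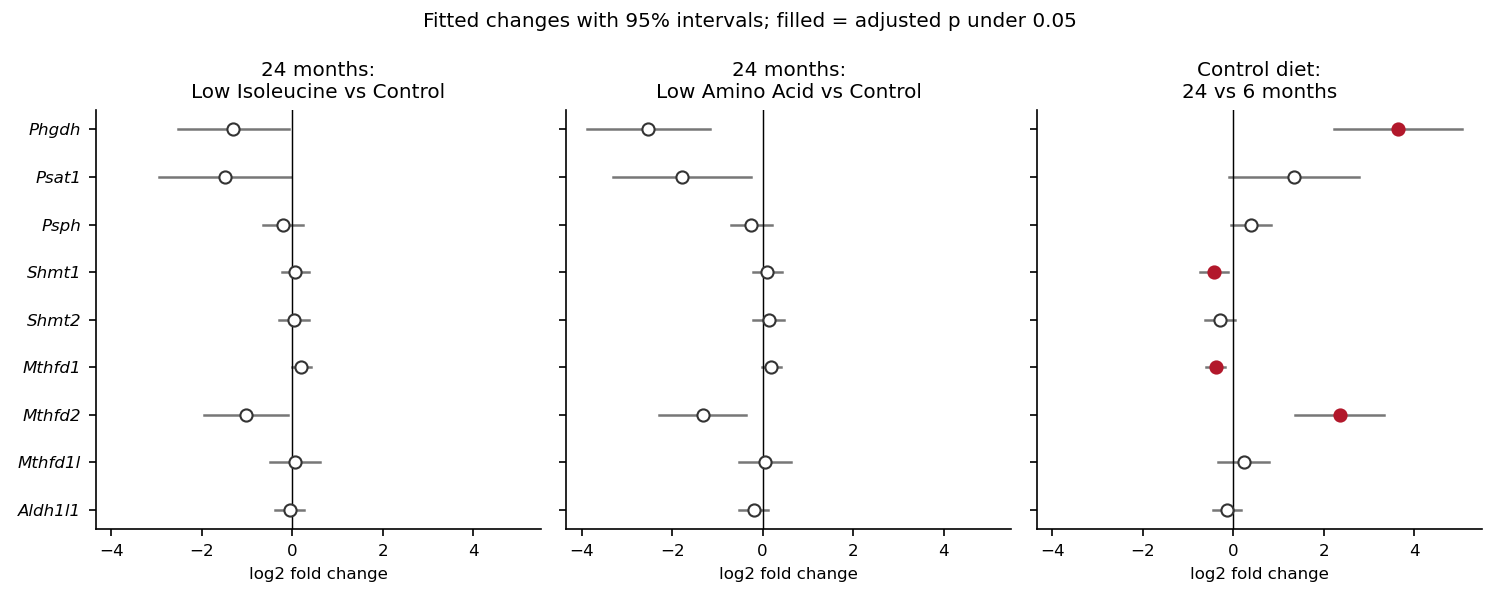
Fitted log2 fold change of each enzyme (points) with its 95% interval (lines) in 3 comparisons of female livers; filled points passed an adjusted p of 0.05. Filled points appear only in the age comparison, for Phgdh (3.64), Mthfd2 (2.35), Shmt1 (-0.42) and Mthfd1 (-0.381).

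Some lists of markers of other cells and of inflammation moved with the same age comparison. In 24-month against 6-month controls, 9 of 9 neutrophil genes, 6 of 8 Kupffer cell and macrophage genes, 7 of 8 lymphocyte genes, 4 of 6 proliferation genes and 6 of 6 acute phase genes tested were higher. The summed neutrophil genes ran from 12.9 to 3840 CPM in older controls, against 5.99 to 31.9 CPM in younger ones. Ly6g, a defining neutrophil gene, was at 0 in 1 of 8 older and 4 of 8 younger control livers. Summed Kupffer cell and macrophage genes ran from 205 to 2480 CPM in older controls, against 244 to 649 CPM in younger ones. Summed acute phase genes ran from 7770 to 71400 CPM in older controls, against 6250 to 8150 CPM in younger ones. The part of these cells in the enzyme levels was not tested. The 4 hepatocyte and 4 endothelial genes tested showed no called change. Of 5 cholangiocyte genes 1 was higher, and of 6 stellate and fibroblast genes 2 were higher and 1 lower. Lcn2 stands in both the neutrophil and the acute phase list. Without the 6 livers of 24 months whose mean neutrophil level was above 3 on the log2 CPM scale, Phgdh had a log2 fold change of 4.09 and Mthfd2 one of 2.20, both still called. Mthfd1 also stayed called (-0.406), while Shmt1 did not (-0.391, adjusted p = 0.0741).

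Age comparisons on the restricted diets gave fewer calls. On Low Isoleucine, 1 of the 9 enzymes was called between 24 and 6 months, where 7.34% of all genes were. Phgdh ran from 0.202 through 0.862 to 6.74 CPM at 24 months on Low Isoleucine, against 0.0755, 0.133 and 0.544 CPM at 6 months on that diet. The older livers all exceeded the younger median, and 5 of 8 exceeded the highest younger liver. Of the 7 younger livers, 5 held 3 estimated counts of Phgdh or fewer, so that baseline is imprecise. The log2 fold change was 2.97 (SE 0.764, adjusted p = 0.0150). It was 1.90 and no longer called (adjusted p = 0.111) without replicate 2 of the older group, the liver with 6.74 CPM. On Low Amino Acid none of the 9 was called, where 1.61% of all genes were, and no enzyme had an unadjusted p under 0.05; Phgdh had a log2 fold change of 1.03 (95% interval -0.409 to 2.47).

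At 24 months, none of the 9 enzymes passed the adjusted threshold on either restricted diet against Control. Phgdh, Psat1 and Mthfd2 had the most negative fitted log2 fold changes on both diets, and Psph and Aldh1l1 were also negative on both, between -0.249 and -0.058. Of all genes tested, 6.48% were called for Low Isoleucine and 0.745% for Low Amino Acid. The same 8 control livers serve both comparisons, so their results are not independent. Phgdh, Psat1 and Mthfd2 each had an unadjusted p under 0.05 on each diet, and the other 6 enzymes did not; of all 12617 genes, 2820 did on Low Isoleucine and 2137 on Low Amino Acid.

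Phgdh ran from 0.202 through 0.862 to 6.74 CPM on Low Isoleucine and from 0.148 through 0.410 to 1.54 CPM on Low Amino Acid, against 0.546, 1.5 and 15.7 CPM on Control. On Low Amino Acid 5 of 7 livers lay below every control, and on Low Isoleucine 3 of 8 did. The log2 fold changes were -1.30 (SE 0.608, adjusted p = 0.195) for Low Isoleucine and -2.53 (SE 0.675, adjusted p = 0.0557) for Low Amino Acid by edgeR's quasi-likelihood test. Without control replicate 3, the liver with 15.7 CPM, they were -0.402 (adjusted p = 0.725) for Low Isoleucine and -1.629 (adjusted p = 0.157) for Low Amino Acid. Without replicate 2 of Low Isoleucine, the liver with 6.74 CPM, the value for that diet was -2.363 and called (adjusted p = 0.0123). The Low Amino Acid value stood near the threshold. It was called when any 1 of 7 libraries was left out (smallest adjusted p = 0.0315), among them Control replicates 2, 4, 6 and 8.

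Psat1 ran from 0.732 through 0.933 to 5.54 CPM on Low Isoleucine and from 0.334 through 1.05 to 2.23 CPM on Low Amino Acid, against 0.391, 1.57 and 24.2 CPM on Control. Both restricted groups lay within or near the control range. The log2 fold change was -1.48 for Low Isoleucine (SE 0.719, adjusted p = 0.211) and -1.79 for Low Amino Acid (SE 0.760, adjusted p = 0.225). Both rested on control replicate 3, without which they were 0.011 for Low Isoleucine and -0.283 for Low Amino Acid.

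Mthfd2 ran from 0.394 through 0.637 to 3.33 CPM on Low Isoleucine and from 0.148 through 0.489 to 2.46 CPM on Low Amino Acid, against 0.478, 1.69 and 5.17 CPM on Control. In both restricted groups 2 livers stood well above the rest. The log2 fold changes were -1.02 (SE 0.457, adjusted p = 0.170) for Low Isoleucine and -1.33 (SE 0.478, adjusted p = 0.152) for Low Amino Acid.

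The abundant enzymes, and Psph and Mthfd1l, had no unadjusted p under 0.05 on either diet at 24 months. Mthfd1 averaged 258 ± 34.5 CPM on Low Isoleucine (n = 8) and 257 ± 34.6 CPM on Low Amino Acid (n = 7), against 225 ± 52.2 CPM on Control (n = 8). Its log2 fold change was 0.196 on Low Isoleucine (adjusted p = 0.261) and 0.192 on Low Amino Acid (adjusted p = 0.361). For Psph, Shmt1, Shmt2, Mthfd1l and Aldh1l1 the fitted log2 fold changes lay between -0.20 and 0.073 on Low Isoleucine and between -0.249 and 0.131 on Low Amino Acid. Their 95% intervals lay between -0.702 and 0.627 over both diets, so changes of that size were not resolved.

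The calls of Phgdh and Mthfd2 at 24 months changed when 4 livers were left out together. Replicates 2 and 5 of the Low Isoleucine group and replicates 2 and 4 of the Low Amino Acid group do not enter the authors' deposited comparisons of females, as their weights in a regression of those values on the counts were near 0. These 4 livers ranked first and second in their own groups for each of Phgdh, Psat1 and Mthfd2. They were also the lowest pair of their group in Shmt1, at 216 and 215 CPM on Low Isoleucine and 175 and 204 CPM on Low Amino Acid. The reason is not given in the sources used.

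Without those livers, Phgdh ran from 0.202 through 0.590 to 1.03 CPM in the 6 remaining Low Isoleucine livers and from 0.148 through 0.371 to 0.535 CPM in the 5 remaining Low Amino Acid livers. That Low Amino Acid range lay below the lowest Control liver at 0.546 CPM only because its 2 highest livers, at 1.54 and 1.18 CPM, were left out. With all 7 livers the groups overlapped, and overlap was not counted over all genes. Phgdh then had log2 fold changes of -2.56 (adjusted p = 0.00524) for Low Isoleucine and -3.42 (adjusted p = 0.00333) for Low Amino Acid. Mthfd2 had -1.86 (adjusted p = 0.00160) for Low Isoleucine and -2.68 (adjusted p = 0.000669) for Low Amino Acid. All 4 were called, where 1771 of all genes were called for Low Isoleucine and 1473 for Low Amino Acid. In the fit of all 46 libraries those counts were 818 and 94. In these edgeR fits the calls of these enzymes therefore changed with the choice of livers, as for many other genes.

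By mean log2 CPM, these 4 livers also ranked high among the 46 on some marker lists. Replicate 2 of Low Isoleucine ranked 1 of 46 on proliferation and 2 on lymphocyte genes, but 14 on neutrophil genes. Replicate 5 of that diet ranked 5 on both neutrophil and macrophage genes and 46 on hepatocyte genes. Replicate 2 of Low Amino Acid ranked 3 on both neutrophil and macrophage genes, and replicate 4 ranked 4 on neutrophil and 2 on acute phase genes. Over all livers of the 24-month diet comparisons, 3 of 9 neutrophil and 4 of 6 acute phase genes were lower on Low Isoleucine than on Control, and 0 on Low Amino Acid. The part of these cells in the levels of Phgdh and Mthfd2 was not tested. Leaving out the 6 neutrophil-high livers of 24 months, 3 of them Control, gave log2 fold changes for Low Amino Acid of -3.86 for Phgdh (adjusted p = 0.0111) and -2.52 for Mthfd2 (adjusted p = 0.00933). For Low Isoleucine it gave -1.742 for Phgdh (adjusted p = 0.139) and -1.026 for Mthfd2 (adjusted p = 0.201), neither called. The Low Amino Acid livers left out were again replicates 2 and 4, the highest of their group in both enzymes. Of Low Isoleucine, replicate 5 was left out, while replicate 2 stayed with 6.74 CPM of Phgdh. The 2 diets therefore differed in which high livers were removed. Calls over all genes in that run are not given here.

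At 6 months no enzyme was called on either diet, where 0.0238% of all genes were called for Low Isoleucine and 0% for Low Amino Acid. At an unadjusted p under 0.05 there were 1271 genes for Low Isoleucine, 1023 for Low Amino Acid and 0 of the 9 enzymes for either. Phgdh had a median of 0.133 CPM on Low Isoleucine and 0.337 CPM on Low Amino Acid, against 0.220 CPM on Control. Mthfd2 had medians of 0.491 and 0.673 CPM on the restricted diets, against 0.371 CPM on Control. Among the 8 enzymes other than Psat1, fitted log2 fold changes lay between -0.623 and 0.248 on Low Isoleucine and between -0.24 and 0.542 on Low Amino Acid.

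Psat1 ran from 0.344 through 0.628 to 1.29 CPM on Low Isoleucine and from 0.163 through 0.669 to 2.68 CPM on Low Amino Acid at 6 months, against 0.136, 0.446 and 10.5 CPM on Control. Its log2 fold changes of -1.39 on Low Isoleucine (adjusted p = 0.597) and -0.72 on Low Amino Acid (adjusted p = 0.812) were set by control replicate 2, the liver with 10.5 CPM. Without it they were 0.58 on Low Isoleucine and 1.25 on Low Amino Acid, so their direction is not resolved.

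Low Isoleucine and Low Amino Acid were also set against each other. None of the 9 enzymes was called at 24 months (1.25% of all genes) or at 6 months (0.0159%), and none had an unadjusted p under 0.05. The largest difference was that of Phgdh at 24 months, 1.23 on the log2 scale (95% interval -0.106 to 2.57, adjusted p = 0.363). It was 0.172 without replicate 2 of Low Isoleucine, so it rested on 1 liver. Over the other 8 at that age the 95% intervals ran from -1.22 to 1.83, which leaves sizeable differences in the scarce enzymes possible.

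Whether a diet's effect differed between the ages was tested as an interaction, and 0 of the 9 enzymes and 0% of all genes passed for either diet by edgeR. For Low Isoleucine 0 enzymes and 1072 genes had an unadjusted p under 0.05, and for Low Amino Acid 3 enzymes and 1298 genes did. Phgdh had a difference of -2.62 on the log2 scale (95% interval -4.63 to -0.599, adjusted p = 0.482) and Mthfd2 one of -1.87 (-3.26 to -0.478, adjusted p = 0.482) for Low Amino Acid, 24 minus 6 months. The third, Mthfd1, had a positive difference of 0.302 (0 to 0.604, adjusted p = 0.485). That of Phgdh was -1.716 without replicate 3 of the 24-month controls. For Low Isoleucine Mthfd2 differed by -1.24 (-2.64 to 0.166, adjusted p = 0.639). The libraries absent from the deposited female table were then left out. The Low Amino Acid difference was called for both Phgdh (-3.50, adjusted p = 0.0341) and Mthfd2 (-3.22, adjusted p = 0.00703), as for 521 of all genes. The Low Amino Acid livers left out were those highest in both enzymes within their group.

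Among livers of the same group the enzymes varied in 2 blocks. Correlations were taken over 46 libraries on log2 CPM after each group's mean was subtracted, for 36 pairs, with 100000 permutations within groups and adjustment over the pairs; 6 pairs were positive and 1 negative at an adjusted p under 0.05. The scarce block joined Phgdh, Psat1 and Mthfd2, the genes whose start windows are printed above. Psat1 and Mthfd2 had r = 0.670 (rho = 0.616, adjusted p = 0.00036 by permutation), Phgdh and Mthfd2 r = 0.664 (rho = 0.565, adjusted p = 0.00048), and Phgdh and Psat1 r = 0.579 (rho = 0.439, adjusted p = 0.00153). Without the 2 libraries farthest from the median of the first gene these were 0.640, 0.564 and 0.396. Each relation was uneven over groups. For Phgdh and Psat1, r was 0.901 and 0.900 within the 24-month Low Isoleucine and Control livers and -0.0613 within the 6-month Low Amino Acid livers. For Phgdh and Mthfd2 it was 0.703 to 0.939 within the 24-month groups. Within 6-month Low Amino Acid, Low Isoleucine and Control livers it was 0.00333, 0.196 and 0.463. For Psat1 and Mthfd2 it was -0.0658 within 6-month Low Isoleucine livers and 0.379 to 0.91 within the other groups.

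The abundant block joined Shmt1, Mthfd1 and Shmt2. Shmt1 and Mthfd1 had r = 0.730 (rho = 0.677, adjusted p = 0.00036 by permutation), Shmt1 and Shmt2 r = 0.523 (rho = 0.461, adjusted p = 0.00317), and Shmt2 and Mthfd1 r = 0.498 (rho = 0.480, adjusted p = 0.0113). Without the 2 libraries farthest from the median of the first gene these were 0.662, 0.356 and 0.518. These relations were uneven over groups too. Shmt1 with Mthfd1 had r = 0.0115 within 6-month Low Isoleucine livers and 0.452 to 0.897 within the other groups. For Shmt2 with Shmt1, r was -0.0392 within 24-month Low Isoleucine livers and 0.954 within 24-month controls. For Shmt2 with Mthfd1 it was -0.36 and 0.894 in the same 2 groups. Across the blocks, Shmt1 and Mthfd2 had r = -0.549 (rho = -0.529, adjusted p = 0.0117 by permutation). Within 6-month Low Isoleucine livers that r was 0.036, and within the other groups it ran from -0.927 to -0.356. Psph and Mthfd1l were in no called pair, and Aldh1l1 reached r = 0.407 with Mthfd1 (adjusted p = 0.0761). Psph, the last enzyme of serine synthesis, had r = 0.0465 with Phgdh, the first (adjusted p = 0.820 by permutation).

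**Figure D3:**
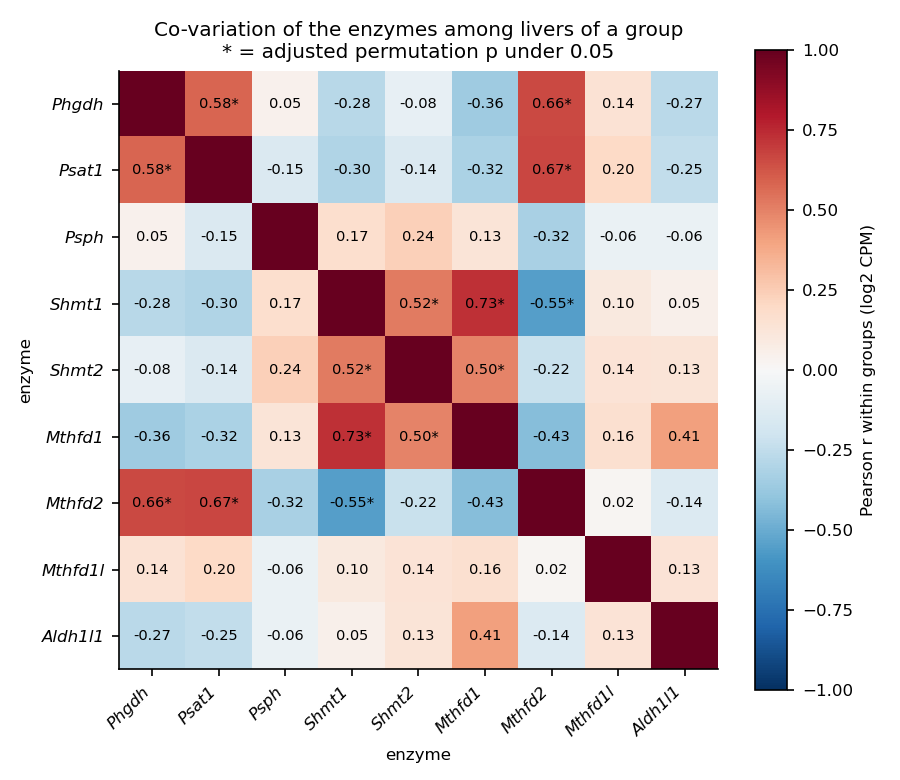
Pearson correlation (colour and number) between each pair of enzymes among female livers after removal of group means; an asterisk marks an adjusted permutation p under 0.05. Phgdh, Psat1 and Mthfd2 form a positive block at 0.579 to 0.670, Shmt1, Shmt2 and Mthfd1 form another, and Shmt1 with Mthfd2 is negative at -0.549.

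**Figure D4:**
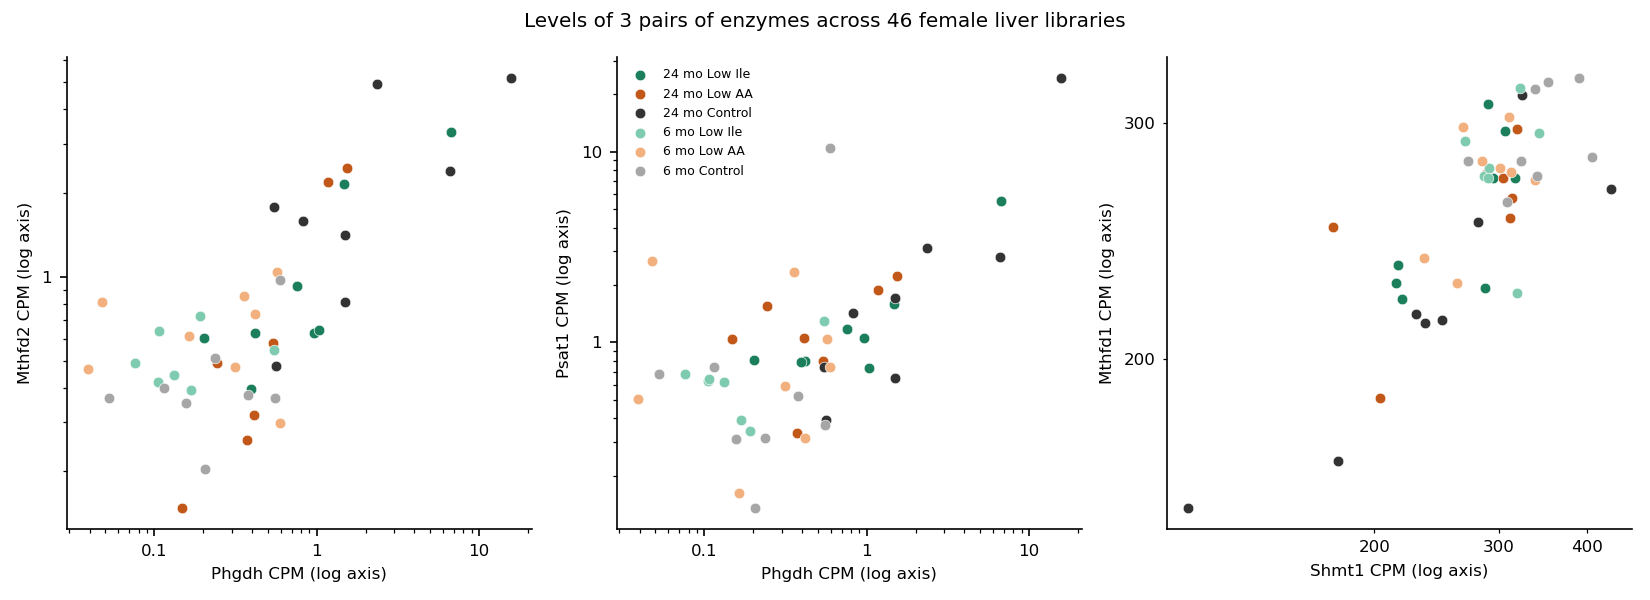
Levels in CPM (both axes log) of Mthfd2 against Phgdh, Psat1 against Phgdh and Mthfd1 against Shmt1; each point is 1 of 46 livers, coloured by age and diet. All livers above 1 CPM of Phgdh are 24-month livers, with replicate 3 of the Control group at 15.7 CPM of Phgdh, 24.2 of Psat1 and 5.17 of Mthfd2.

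The scarce block also moved with some marker lists, to differing degrees. These r values are a description over the same 46 libraries, after each group's mean was subtracted from enzyme and list alike. Mthfd2 had r = 0.666 with the mean of the macrophage genes, 0.678 with proliferation, 0.655 with neutrophil and 0.569 with acute phase genes. Phgdh had r = 0.626 with the macrophage list and 0.677 with proliferation, but 0.344 with neutrophil and 0.188 with acute phase genes. Psat1 had 0.536 with proliferation, 0.394 with macrophage, 0.227 with neutrophil and 0.245 with acute phase genes. Shmt1 ran against the acute phase genes (r = -0.580) and so did Mthfd1 (-0.452). Mthfd1 also ran against the stellate and fibroblast genes (-0.496). Replicate 3 of the 24-month controls, highest in all 3 scarce enzymes, ranked 8 of 46 on proliferation and neutrophil genes, 9 on macrophage genes, 7 on acute phase genes and 1 on cholangiocyte genes. The part of these cells in the co-variation was not tested.

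For each enzyme the gene most like it over the 46 libraries, by the same within-group r, was named. Phgdh was most like Aldh18a1 (r = 0.788), which makes the proline precursor pyrroline-5-carboxylate, and Psat1 was most like Asns (0.774), asparagine synthetase. Mthfd2 was most like Arhgef2 (0.785), followed by Aldh18a1 (0.779). In the abundant set, Shmt1 was nearest to Kxd1 (0.865), Shmt2 to the mitochondrial dicarboxylate carrier Slc25a10 (0.849) and Mthfd1 to the betaine carrier Slc6a12 (0.842). Aldh1l1 was nearest to Gnmt (0.757), the glycine N-methyltransferase that binds folate. Psph was nearest to Kdm2b (0.717) and Mthfd1l to Sipa1l2 (0.656). No enzyme had another of the 9 among its 3 nearest genes.

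Other genes of the pathway, in lists set by name with earlier results known, are given first for the age comparison on Control, the comparison with the most calls over the whole table too: 16.7% of all genes were higher and 11.4% lower. In 24-month against 6-month controls, Aldh1l2, the mitochondrial counterpart of Aldh1l1 and 1 of 12 other folate enzymes tested, had a log2 fold change of 2.20 (adjusted p = 0.00127). The median of those 12 was -0.007, against 0.0325 over all genes.

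Among 6 genes of glycine cleavage and mitochondrial carbon donors, the glycine decarboxylase Gldc was higher (0.616, adjusted p = 0.0208), and the sarcosine and dimethylglycine dehydrogenases Sardh (-0.632, adjusted p = 0.0234) and Dmgdh (-0.463, adjusted p = 0.0142) were lower in 24-month controls; the list's median was -0.258. Of 9 genes that use serine or glycine, 3 were higher, among them Sdsl (1.29) and Cbs (0.526), and Srr was lower (-0.523), with a median of 0.101; that background applies to each of these lists. Of 10 carriers tested, the neutral amino acid carriers Slc1a4 (1.69, adjusted p = 0.000142) and Slc1a5 (1.38) were higher and the mitochondrial folate carrier Slc25a32 was lower (-0.716), with a median of -0.065.

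The list of ATF4 and its other targets held more higher than lower genes with age, and more lower than higher ones on Low Isoleucine. In 24-month against 6-month controls 8 of 19 tested were higher and 2 lower, where 16.7% of all genes were higher and 11.4% lower, with a median of 0.240: Asns had a log2 fold change of 3.81, Slc7a11, the cystine carrier, 2.23, Chac1, which degrades glutathione, 2.10 and Atf4 itself 0.335 (adjusted p = 0.0333). The 2 lower were Trib3 (-1.50) and Cth (-0.751). At 24 months, Low Isoleucine against Control had 1 higher (Cth, 0.862) and 6 lower of 19, where 340 of all 12617 genes were higher and 478 lower, with a median of -0.303. These included Chac1 (-2.82, adjusted p = 0.00321), Asns (-2.80, adjusted p = 0.0382) and Atf4 (-0.44, adjusted p = 0.0208). Low Amino Acid against Control had 0 higher and 2 lower, Atf4 (-0.641, adjusted p = 0.0166) and the asparaginyl-tRNA synthetase Nars (-0.458, adjusted p = 0.0380), with a median of -0.222. These targets share the same control livers as the enzymes, and the part of Atf4 in the enzyme levels was not tested.

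In the other lists at 24 months, Gart, a purine enzyme that takes a formyl group from folate, was lower on Low Isoleucine (-0.228, adjusted p = 0.0200) and on Low Amino Acid (-0.301, adjusted p = 0.0200). Low Isoleucine also had lower Gcsh (-0.546), Sptlc2 (-0.332) and Slc1a4 (-1.37, adjusted p = 0.00331). No gene of these lists was called on either diet at 6 months.

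The authors' deposited tables give comparisons for both sexes, and are the only source for males here, since the male columns of the count table do not match their gene lines. In the authors' deposited table of females, 24 against 6 months on Control, Phgdh had a log2 fold change of 2.92, Mthfd2 2.06, Shmt1 -0.507 and Mthfd1 -0.398, all with an adjusted p under 0.05, where 23.5% of genes had. In the authors' deposited table for 24-month females, Low Isoleucine gave Phgdh -1.82 (adjusted p = 0.0505) and Mthfd2 -1.54 (adjusted p = 0.0129), where 9.24% of genes passed. For Low Amino Acid the authors' deposited table gave Phgdh -2.55 (adjusted p = 0.0389) and Mthfd2 -2.40 (adjusted p = 0.00677), where 5.53% passed. At 6 months none of the 9 passed in the authors' deposited table of females, where 0.0931% of genes did on Low Isoleucine and 0.0116% on Low Amino Acid. These values come from the same livers as the counts, less the 4 named above and the library left out here, and are no separate evidence.

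In males, other members passed. In the authors' deposited table of males, read with the sign of the female one, Shmt2 was lower at 6 months on Low Isoleucine (-0.917, adjusted p = 0.000352) and on Low Amino Acid (-0.786, adjusted p = 0.000592). On Low Amino Acid the authors' deposited table also gave Psph -0.801 (adjusted p = 0.00988) and Psat1 1.68 (adjusted p = 0.0109); 21.1% and 16.3% of genes passed for these diets. At 24 months 0 of the 9 enzymes passed in the authors' deposited table of males on either diet, where 0.0676% of genes passed on Low Isoleucine and 0.0563% on Low Amino Acid. With age on Control, the authors' deposited table of males had Shmt2 at -0.609 (adjusted p = 0.00614) as the only enzyme past the threshold, where 20.0% of genes passed, and Phgdh at 1.78 (adjusted p = 0.136). The difference between sexes was not tested, and which male livers entered that table is unknown.

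**Figure D5:**
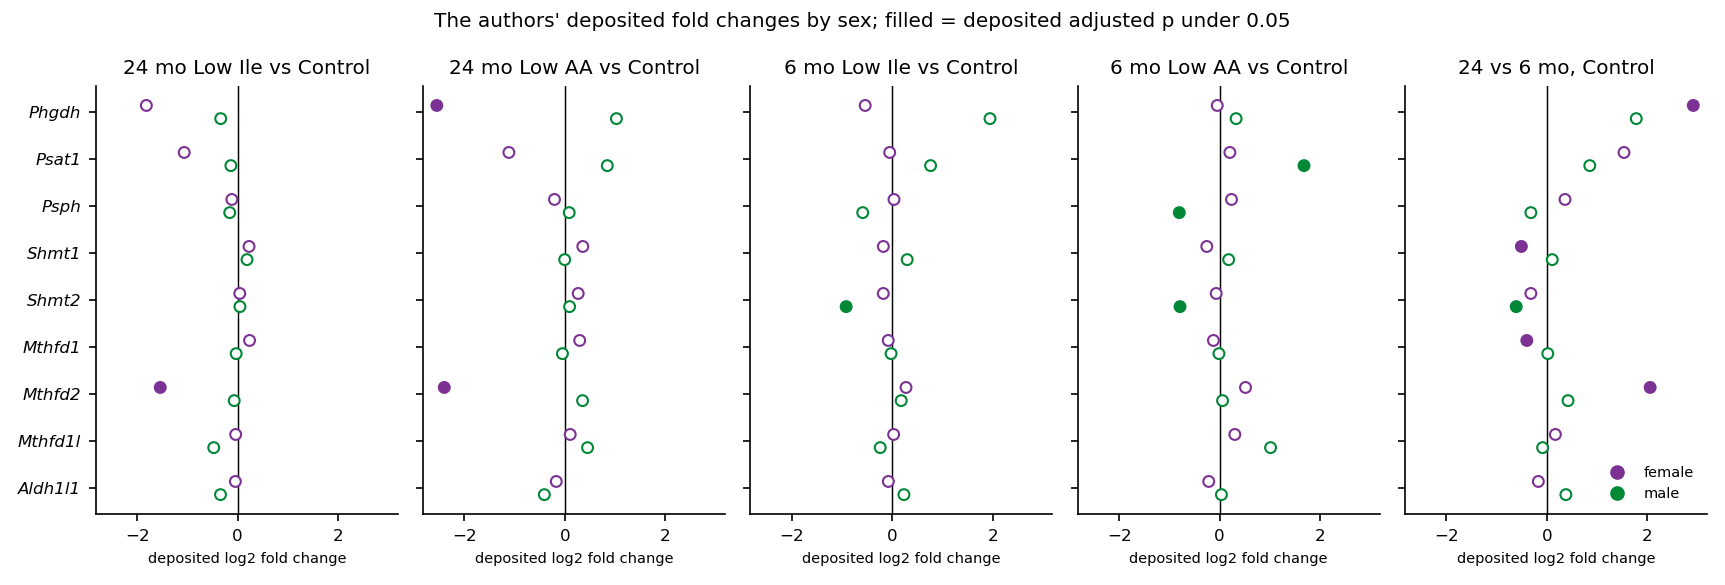
The authors' deposited log2 fold changes of the 9 enzymes in females (purple, upper point) and males (green, lower point) for 5 comparisons; filled points have a deposited adjusted p under 0.05. Phgdh and Mthfd2 lie to the left for 24-month females on both diets (Phgdh at -1.82 and -2.55), and Shmt2 to the left for 6-month males (-0.917 and -0.786).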

How the data were processed

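RNA sequencing of liver was deposited as a gene table of estimated counts made by the authors with RSEM, per the file headers, and pooled over 2 lanes per the labels. The authors also deposited comparison tables of log2 fold changes with p-values and adjusted p-values, per the file headers. The submitters' processing notes name R 3.4.3, edgeR, limma and GRCm38.p5; which aligner and strand setting were used is not given there. Of 51912 lines, the 17275 with all columns filled were used. The 45 male columns were not used, as their values do not match the gene lines.

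Estimated counts were rounded. Low genes were filtered with filterByExpr, leaving 12617, and scaled with TMM. One edgeR 4.0.16 quasi-likelihood model over 46 female libraries and 6 groups gave all 11 comparisons, with Benjamini-Hochberg adjustment over all genes and a threshold of 0.05. CPM are TMM-scaled, except those of albumin, Kdm5d and the summed marker genes, which are per 1e+06 of the library total. Length is the union of GENCODE M21 exons. The fit was also run on counts simulated from its own fitted spread. Such counts cannot show how it handles single livers far from their group. Each library is taken as 1 mouse; the labels do not state this, so p-values measure the spread between libraries.

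The members, lists and tests were chosen with earlier results of these data known. Named genes are the 9 members, up to 4 called genes per list and comparison by smallest adjusted p, Atf4, and the 3 genes most like each member; ATF4-list examples beyond that were named after their values were seen. Some genes of the list of other folate enzymes are not reported here. Alternatives were RLE scaling, DESeq2 1.42.0, no filter, only the groups compared, limma 3.58.1 voom with sample weights, the left-out library added, the libraries of the deposited table alone, each library left out and, added after seeing the data, the neutrophil-high libraries left out. R 4.3.3, Python 3.11.15 and scipy 1.17.1 were used.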

Additional observations from a re-analysis of the deposited data

Results flagged for a closer look

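In 11 of 54 sets of values (9 enzymes in 6 groups) the highest or lowest liver stood farther from its nearest neighbour than Dixon's critical ratio (0.568 for 7 livers, 0.526 for 8). Chance gives such a gap in about 1 in 20 groups of normally spread values, and CPM of scarce genes are skewed.

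The serine enzymes and Mthfd2 held 9 of the 11. In 24-month Low Isoleucine livers, replicate 2 had 6.74 CPM of Phgdh against 1.48 in the next, and 5.54 CPM of Psat1 against 1.59. In 24-month controls, replicate 3 had 15.7 CPM of Phgdh, where the next had 6.6, and 24.2 CPM of Psat1, where the next had 3.13. In 6-month Low Isoleucine livers, replicate 2 had 0.544 CPM of Phgdh next to 0.191, and 1.29 CPM of Psat1 next to 0.68. In 6-month controls, replicate 2 had 10.5 CPM of Psat1, where the next had 0.744, and 0.978 CPM of Mthfd2, where the next had 0.511. Replicate 4 of those controls had 5.28 CPM of Psph above 3.6 in the next. These high values fell in 4 livers, apart from that of Psph.

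The other 2 were a low Mthfd1 in replicate 4 of 24-month Low Amino Acid, at 187 CPM below 251 in the nearest liver, and a high Mthfd1l in replicate 1 of 6-month Low Isoleucine, at 16.6 CPM above 8.11.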

How the results depend on the processing

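Of the 9 enzymes, 4 were called with age on Control. That count was 3 when only the groups compared were fitted or the neutrophil-high libraries were left out, and 3 to 5 without any single library. At 24 months, Low Amino Acid against Control had 0 called, but 1 with DESeq2 (Phgdh, -2.55, adjusted p = 0.0151), 1 with voom (Mthfd2, -1.95, adjusted p = 0.0349), 2 with only the libraries of the deposited table, 2 without the neutrophil-high libraries, and 0 to 1 without any single library. For Low Isoleucine against Control at 24 months, 0 were called, but 1 with voom (Mthfd2, -1.32), 2 with the libraries of the deposited table and 0 to 2 without any single library. Calls over all genes moved with the setting too, from 4 to 1473 for Low Amino Acid and from 40 to 1771 for Low Isoleucine. DESeq2, voom and the neutrophil-high run lay within those ranges, so their enzyme counts are given without a share of their own. Without any single library, Phgdh there ran from -2.363 (without replicate 2 of Low Isoleucine, called) to -0.402 (without control replicate 3), and Mthfd2 from -1.526 to -0.751 without the same livers; on Low Amino Acid Phgdh ran from -2.929 to -1.629. For age on Low Isoleucine, 1 was called, but 0 when only the groups compared were fitted (Phgdh then fell below the filter and could not be tested), 0 with voom (Phgdh 2.02, adjusted p = 0.0695), 0 with the libraries of the deposited table (1.71) and 0 to 1 without any single library. The Low Amino Acid difference between ages had 0 called, but 2 with the libraries of the deposited table. The 6 other comparisons had 0 called in all settings run. Of 36 pairs of enzymes, 7 were called with or without the library left out.

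With voom, Psat1 at 6 months turned to 0.069 on Low Isoleucine and to 0.392 on Low Amino Acid, and Mthfd1l with age turned to -0.016. Without any single library, Psat1 at 6 months ran from -1.631 to 0.58 on Low Isoleucine and from -1.078 to 1.248 under Low Amino Acid, turning positive without control replicate 2. At 24 months it ran from -2.171 to 0.011 on Low Isoleucine, and with age on Control from -0.157 to 3.315, both turning without control replicate 3 of 24 months. The causes were not tested.

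Over all genes, counts of calls moved more; ranges in brackets leave aside the runs without a single library, which gave 2714 to 4035 with age on Control, 385 to 1514 with age on Low Isoleucine and 56 to 261 on Low Amino Acid, 555 to 1007 for Low Isoleucine and 15 to 265 for Low Amino Acid at 24 months, 67 to 261 between these diets, and 0 to 7 elsewhere. At 24 months there were 818 for Low Isoleucine (40 with only the groups compared, 1771 with the libraries of the deposited table) and 94 for Low Amino Acid (4 and 1473), with 158 between these diets (75 to 832). With age there were 3538 on Control (2140 to 3880), 926 on Low Isoleucine (119 to 1371) and 203 on Low Amino Acid (26 to 467). At 6 months there were 3 for Low Isoleucine (2 to 72), 0 for Low Amino Acid (0 to 52) and 2 between them (2 to 200). Differences between ages had 0 for Low Amino Acid (0 to 521) and 0 for Low Isoleucine (0 to 10).

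No paired analysis was possible because replicate numbers were given in accession order and pair no livers. Depth limits Phgdh most. At 6 months, 5 of 7 Low Isoleucine livers, 2 of 8 Low Amino Acid livers and 3 of 8 controls held 3 counts or fewer.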
